A study of Mus musculus with 36 samples.

Results

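The fetal gonad macrophage genes described here are 10 genes that mark tissue macrophages, chosen by symbol from the 21699 genes listed for each stage in mouse gonads with and without the miR-17~92 microRNA cluster. They are the receptor and surface genes Csf1r, Adgre1, Cx3cr1, Mrc1 and Fcgr3, the lysosomal gene Cd68, the adaptor gene Tyrobp and the complement genes C1qa, C1qb and C1qc. RNA-seq libraries came from 4 genotypes at embryonic days E11.5 and E12.5, the control and the KO of each chromosomal sex (XX and XY), with 3 replicates each and 2 pairs of gonads pooled per replicate. KO embryos were homozygous for the deleted cluster (miR-17~92 del/del) and had the Cre transgene Tg(CAG-cre)1Nagy in their making, whose promoter is not restricted to gonadal cells, and the deletion in blood or immune cells was not measured. The floxed mice crossed to make them had a C57BL/6 × 129S4/SvJae background, and the controls are labelled WT, with no further genotype given in the sources used here. E11.5 samples were gonads with the attached mesonephros and E12.5 samples were isolated gonads, and the library kits also differed, so each stage was compared within itself.

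Macrophages are among the first immune cells of the fetal gonad. They descend from precursors of the yolk sac and fetal liver, need signalling through the receptor encoded by Csf1r to survive, and in the gonad clear dying or misplaced cells and help to shape the vessels. In bulk RNA they are seen only through the transcripts they contribute, against a background of somatic, germ and endothelial cells.

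Library totals ranged from 17150620 to 34077443 counts at E11.5 and from 11877379 to 44155275 at E12.5, and all 10 macrophage genes passed the filter of 1 CPM (counts scaled to the TMM library size) in at least 2 libraries at both stages. The transcript that hosts the cluster, Mir17hg, which checks the genotype labels, was higher in KO than in control gonads of both sexes, by a log2 fold change of 2.11 (XY) and 2.30 (XX) at E11.5 and of 1.89 (XY) and 1.22 (XX) at E12.5. Its reads outside the deleted part do not check the loss of the microRNAs themselves. How many genes were called in a comparison turned on which libraries were kept. Leaving out XY control replicate 2 at E11.5, the number went from 126 to 2495 between the controls and from 1804 to 2891 in XY KO against XY control. At E12.5, leaving out replicate 2 of XX KO took it from 22 to 1828 in XX KO against XY KO and from 755 to 1670 in XX KO against XX control. The latter number fell to 35, 83 or 117 without XX control replicate 1, XX control replicate 2 or XX KO replicate 3, and was 1073 without XX control replicate 3.

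The macrophage genes were expressed at low to moderate levels in every library. Per kilobase of exon, C1qb had the highest mean in E11.5 control gonads, at 15.3 ± 0.597 CPM per kb in XX and 16.3 ± 1.89 in XY (SD, n = 3), followed by C1qa at 11.1 ± 1.402 and 12.2 ± 0.533. The ranges of C1qb and C1qa did not meet in either control genotype. Tyrobp, C1qc, Csf1r, Cd68, Mrc1, Cx3cr1 and Fcgr3 lay between 3.85 and 9.07 CPM per kb, and many neighbours in that order overlapped. Adgre1, which encodes the F4/80 surface receptor used to stain mouse macrophages, was the lowest at both stages and in all genotypes, with 2.84 ± 0.365 and 2.71 ± 0.509 CPM per kb in the E11.5 XX and XY controls. At E12.5 the order was less clear: Tyrobp ranked first in XY controls at 5.08 ± 0.335 CPM per kb, overlapping C1qb, whereas C1qb led in XX controls at 7.07 ± 1.31 and overlapped C1qa.

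The 10 genes lie on 8 chromosomes, and the complement chains form the only cluster among them. In the GRCm38 build (mm10), C1qb (chr4:136880129-136886187), C1qc (chr4:136889804-136893065) and C1qa (chr4:136895917-136898803) are adjacent protein-coding genes on the minus strand of chromosome 4. The exons of Csf1r overlap those of Hmgxb3, on the opposite strand, over 873 bases, and 13.9% of the 75-base words of Csf1r transcripts occur in Hmgxb3 as well. How the counting treated strand is not given in the sources used here, so that part of the Csf1r count could hold Hmgxb3 reads. Fcgr3 shares 5.42% of its words with the neighbouring receptor gene Fcgr2b.

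The cluster encodes microRNAs of 4 seed families, and the seed (bases 2 to 8, in capitals below, RefSeq sequences of GRCm38.p6, chromosome 14) is the part that pairs with target messages. These are shown because the deletion removes them, and their mature forms are not measured by these libraries.
miR-17-5p: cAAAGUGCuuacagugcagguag
miR-20a-5p: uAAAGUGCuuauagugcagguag
miR-18a-5p: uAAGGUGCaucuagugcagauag
miR-19a-3p: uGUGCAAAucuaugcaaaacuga
miR-19b-3p: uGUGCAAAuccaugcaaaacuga
miR-92a-3p: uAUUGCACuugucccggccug
A match to the 7 seed bases of any family was found in the longest annotated 3′ UTR of 3 of the 10 macrophage genes (30%), against 6394 of 21123 genes with a UTR (30.3%). The match sites, in capitals, were those of the miR-17 family in Adgre1 and C1qa and of the miR-92 family in Cx3cr1.
Adgre1: gtgtttcctatGCACTTTcttgtggtgtt
C1qa: ggtttctttaaGCACTTTctggaataaac
Cx3cr1: taaccagattaGTGCAATtacaaaggggt
No match was found in the longest 3′ UTR of Csf1r, Tyrobp, C1qc or Mrc1, the members called in a comparison below. A match is a string of letters and not a measured site. The motif GAGGAA, the purine-rich core bound by the myeloid factor PU.1, was searched on both strands of the 300 bases around each start (250 before and 50 after). It was found for 5 of the 6 members with a promoter entry, namely Fcgr3, Mrc1, C1qb, C1qc and Cd68 and not Cx3cr1. Counted by promoter entry, it was in 6 of 7 entries of members and in 28.3% of 32851 entries of all genes. Fcgr3 has overlapping entries that hold the same site. The windows of the complement chains are shown with the motif in capitals, since both genes are described below.
C1qb (chr4:136886213-136886242, minus strand): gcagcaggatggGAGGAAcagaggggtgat
C1qc (chr4:136893090-136893119, minus strand): gacggcagacacTTCCTCattttggcacac

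At E11.5, loss of the cluster went with lower levels of Csf1r, Tyrobp and C1qc in gonads of both sexes. A gene is called here when its false discovery rate (FDR, Benjamini-Hochberg over all genes tested, edgeR quasi-likelihood test) is under 0.05. In XY KO against XY control, 3 of 10 macrophage genes were called, all lower, against 12.7% of 14217 genes called in either direction and 6.81% called lower. Without XY control replicate 2, 2 members were called against 20.4% of genes. In XX KO against XX control the same 3 genes were called, again all lower, against 3.27% of genes called and 1.46% called lower. Leaving out single libraries gave 1 to 4 members called in this XX comparison. The count fell to 1, Csf1r, when any XX control library, or XX KO replicate 2 or 3, was left out. The share of all genes for that drop is not given here. Without XY control replicate 2, which is not in the XX comparison but shares its fit, 4 members were called against 4.68% of genes. All 10 genes had a fitted log2 fold change below 0 in each comparison, as did 53.5% and 50.7% of all genes, with medians over the members of -0.50 (XY) and -0.69 (XX) against -0.03 and 0.00 over all genes. These comparisons contrast different libraries, but both tests took their spread from one fit of all 12 libraries of the stage. The 10 genes are also markers of the same cell type and do not vary independently. Fewer macrophages and less RNA per macrophage cannot be told apart in bulk samples.

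**Figure D1:**
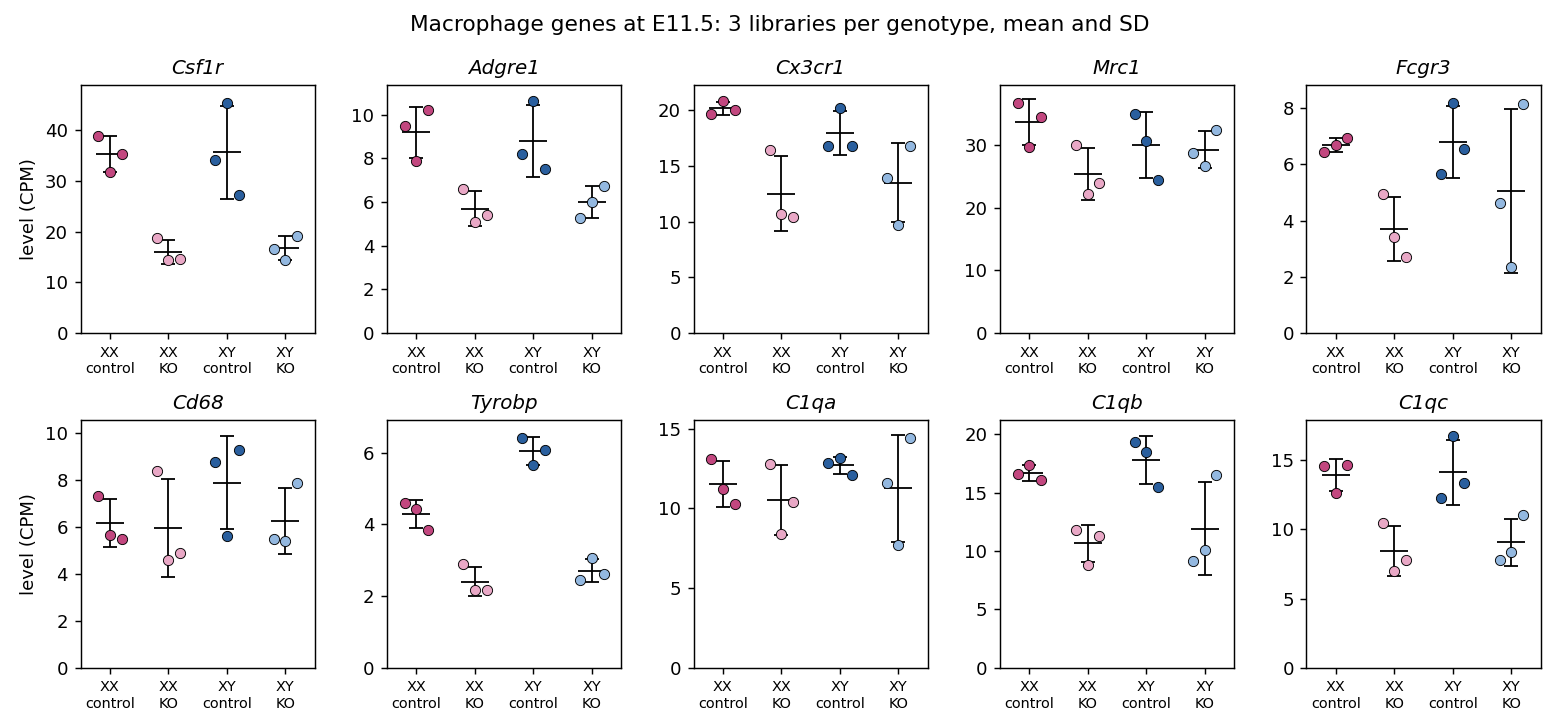
Levels of the 10 macrophage genes at E11.5 in CPM (y axes, linear and starting at 0) by genotype (x axes), with 1 point per library, and a bar and whiskers for the mean and SD of 3 libraries. The KO points of Csf1r and Tyrobp lie below all control points in both sexes, whereas those of Cd68 and C1qa overlap the controls.

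Csf1r, which encodes the receptor for the growth factors CSF1 and IL34, had levels of 34.2, 45.4 and 27.3 CPM in the XY control libraries and of 16.6, 14.5 and 19.1 CPM in XY KO. In XX gonads it had 38.8, 31.8 and 35.2 CPM in the controls and 18.6, 14.5 and 14.6 CPM in KO. Every KO library was below every control library of either sex. The log2 fold change was -1.09 ± 0.17 (SE, FDR = 0.00119) in XY and -1.14 ± 0.17 (FDR = 0.00197) in XX gonads, that is 0.469 and 0.453 of the control level. Csf1r was called in both sexes under every alternative tried, and without XY control replicate 2, its highest library, the value in XY gonads was -0.88 (FDR = 0.00168). Hmgxb3, the overlapping gene, had log2 fold changes of -0.22 (FDR = 0.110) and 0.03 (FDR = 0.934).

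Tyrobp encodes DAP12, the adaptor through which many myeloid receptors signal. Its levels were 6.42, 5.65 and 6.06 CPM in XY controls against 2.44, 3.07 and 2.61 CPM in XY KO, and 4.59, 4.44 and 3.84 CPM in XX controls against 2.89, 2.17 and 2.17 CPM in XX KO. KO and control libraries did not overlap in either sex, and the XX controls lay below the XY controls. Tyrobp fell by 1.16 ± 0.20 on the log2 scale in XY gonads (FDR = 0.00181) and by 0.83 ± 0.20 in XX gonads (FDR = 0.0331). The XX call was lost when any XX control library or XX KO replicate 2 or 3 was left out (FDR 0.0616 to 0.135) and with only those 2 groups in the fit (FDR = 0.0560).

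The C1q genes encode the A, B and C chains of the recognition molecule of the classical complement pathway, which macrophages make and which tags dying cells. C1qc had 12.3, 16.7 and 13.4 CPM in XY controls and 7.77, 8.40 and 11.01 CPM in XY KO, and 14.6, 12.6 and 14.7 CPM in XX controls and 10.5, 7.01 and 7.79 CPM in XX KO. Its libraries did not overlap in either sex. The log2 fold changes were -0.64 ± 0.18 (FDR = 0.0332) and -0.72 ± 0.18 (FDR = 0.0444), but C1qc lost its XY call without XY control replicate 2 (FDR = 0.0740) or 3, or XY KO replicate 1 or 2 (FDR up to 0.135) and with only those 2 groups in the fit (FDR = 0.0791). C1qc lost its XX call without any of 8 libraries, namely any XX control, XX KO replicate 2 or 3, XY control replicate 3, or XY KO replicate 1 or 2 (FDR 0.0519 to 0.151). C1qb, the neighbouring gene, had 15.4 to 19.4 CPM in XY controls and 9.14, 10.1 and 16.5 CPM in XY KO, where replicate 3 reached the control range. Without that library C1qb was called (-0.87, FDR = 0.00655), against -0.58 (FDR = 0.0577) with it. In XX gonads C1qb lay at 16.1 to 17.4 CPM in controls and at 8.84 to 11.8 CPM in KO without overlap, but with an FDR of 0.0871 it was not called. C1qa, the third of the adjacent genes, overlapped between KO and control in both sexes, with 7.73 to 14.4 CPM in XY KO against 12.1 to 13.2 in XY controls. The intervals of its log2 difference (95%) ran from -0.61 to 0.26 in XY and from -0.56 to 0.31 in XX gonads.

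None of the other surface receptors was called in edgeR, although Adgre1 was close to the threshold in both sexes. Adgre1 had 5.26, 5.99 and 6.71 CPM in XY KO against 8.21, 10.6 and 7.49 CPM in XY controls, and 6.59, 5.10 and 5.39 CPM in XX KO against 9.46, 7.88 and 10.2 CPM in XX controls. The groups did not overlap in either sex, and the FDRs were 0.0587 and 0.0569. Without XY control replicate 2, Adgre1 was called in XX gonads (log2 fold change -0.68, FDR = 0.0300). Cx3cr1, the receptor of the chemokine fractalkine, did not overlap in XX gonads (10.4 to 16.4 CPM in KO, 19.7 to 20.8 in controls, FDR = 0.0682) but did in XY gonads, where XY KO replicate 3 reached 16.8 CPM against 16.7 to 20.2 in controls. Fcgr3, a receptor for the Fc part of IgG, had the widest spread, with 4.63, 2.36 and 8.14 CPM in XY KO against 5.64 to 8.18 in XY controls. In XX gonads its KO libraries (2.72 to 4.95 CPM) were all below the controls (6.44 to 6.94 CPM), with an FDR of 0.219. Mrc1, the mannose receptor CD206 of scavenging macrophages, overlapped in both sexes, with 26.7 to 32.5 CPM in XY KO against 24.4 to 34.9 in XY controls and 22.2 to 30.1 in XX KO against 29.6 to 36.7 in XX controls. Cd68, a lysosomal glycoprotein, overlapped in both sexes as well, with intervals of the log2 difference from -0.88 to 0.21 in XY and from -0.59 to 0.51 in XX gonads.

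Counting libraries rather than calls, 4 of 10 genes had all XY KO libraries below all XY controls (14.5% of all genes) and 7 of 10 had all XX KO libraries below all XX controls (11.9% of all genes). With 3 against 3 libraries such a separation gives an exact permutation p of 0.1, the smallest the design allows. At an unadjusted p under 0.05, 5 genes passed in XY gonads (28.9% of all genes) and 8 in XX gonads (15.7%). The summed level of the 10 genes was 139 to 175 CPM in XY controls, 148 to 167 in XX controls, 93.9 to 136 in XY KO and 86.8 to 123 in XX KO, with all KO libraries below all control libraries. XY KO replicate 3, the highest of the KO libraries at 135.6 CPM, came close to the lowest control, XY control replicate 3 at 138.8 CPM. Csf1r made up 19.1 CPM of the former sum and 27.3 CPM of the latter. Without Csf1r, XY KO replicate 3 would be above that control, and the other KO libraries would still be below all controls. The C1q chains made up 26.1% to 31.5% of the sum in all E11.5 libraries.

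**Figure D2:**
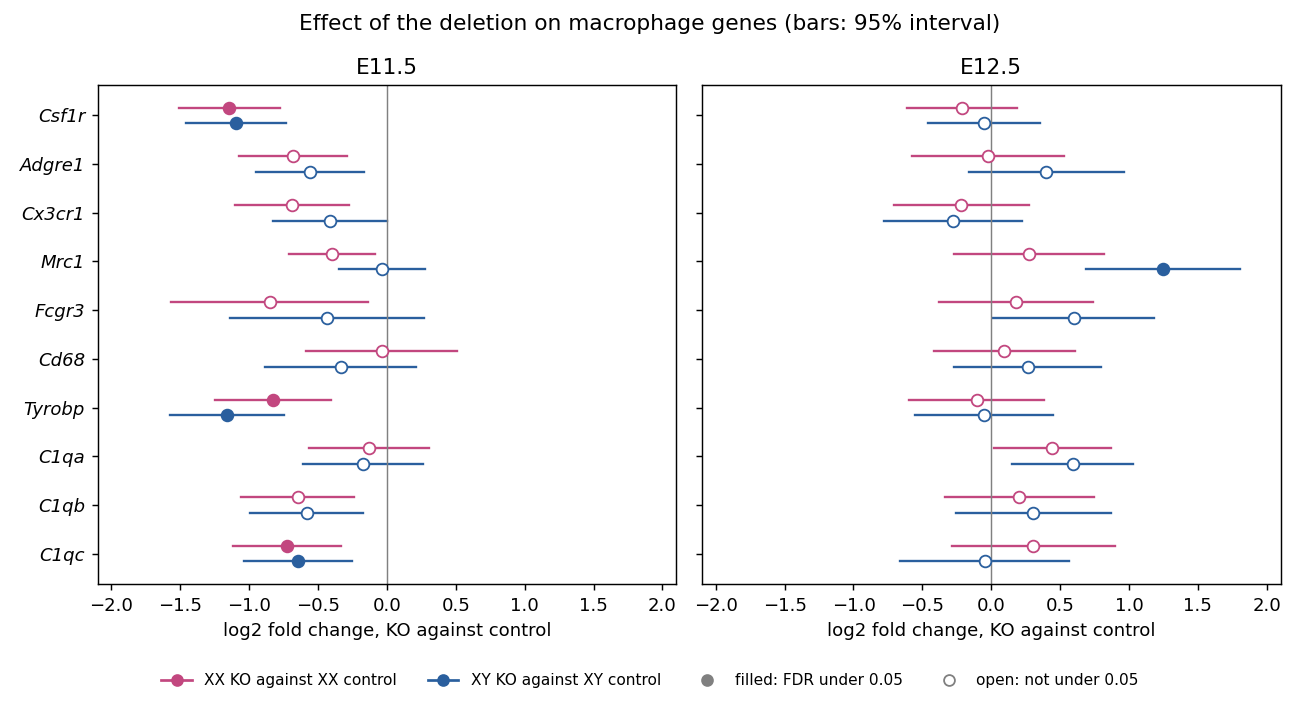
Log2 fold change of KO against control (x axes) for each macrophage gene at E11.5 (left) and E12.5 (right), in XX and XY gonads, with bars for the 95% interval and filled points for an FDR under 0.05. At E11.5 all 20 points lie below 0 with 6 of them filled, and at E12.5 only the XY value of Mrc1 is filled.

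Sex made no called difference to these genes at E11.5. In XX control against XY control, 0 of 10 were called (0.886% of all genes, or 17.6% without XY control replicate 2, where 0 members were called too), 1 passed an unadjusted p of 0.05 in edgeR (17.9% of all genes), and DESeq2 called 0 as well. That gene was Tyrobp, with a log2 fold change of -0.49 (FDR = 0.203). In XX KO against XY KO, edgeR called 0 of 10 (0.0844% of all genes), 0 had an unadjusted p under 0.05 (16.1% of all genes) and DESeq2 called 0, with intervals of -0.44 to 0.30 for Csf1r and -0.60 to 0.27 for Tyrobp on the log2 scale. The effect of the deletion in XY minus that in XX gonads, tested as an interaction of sex and genotype, was called for 0 of 10 genes (0.0352% of all genes), with 0 at an unadjusted p under 0.05 (12.8% of all genes) and 0 in DESeq2. Its interval was -0.46 to 0.56 for Csf1r, -0.92 to 0.26 for Tyrobp and -0.48 to 0.63 for C1qc.

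A minority of the other macrophage genes on the lists were called at E11.5, in both directions in XY gonads. These counts stand against 12.7% of all genes called (6.81% lower) in XY KO and 3.27% (1.46% lower) in XX KO. Of 5 myeloid transcription factors, Irf8 was lower in both sexes (log2 fold change -1.07, FDR = 0.00723 in XY and -0.87, FDR = 0.0446 in XX), Cebpb in XY (-1.16, FDR = 0.0163) and Spi1, which encodes PU.1, in XX gonads (-0.96, FDR = 0.0418), against 0 called higher. Of 14 other phagocyte receptors and adaptors tested, Clec7a, the receptor dectin-1, and Fcgr1, the high-affinity IgG receptor, were lower in both sexes (-1.49 and -1.01 in XY, -1.61 and -1.04 in XX), and C3ar1 was lower in XX gonads (-0.99, FDR = 0.0302). The scavenger receptor gene Msr1 went the other way in XY gonads, from 2.06 ± 0.23 to 4.32 ± 0.52 CPM (SD, n = 3, log2 fold change 1.06, FDR = 0.00773). Among 7 genes of resident fetal macrophages, Ms4a7 was lower (-1.19, FDR = 0.0287) and Lyve1, which lymphatic endothelium makes too, was higher (1.47, FDR = 0.00720) in XY gonads, and 0 were called in XX gonads. Of 10 genes of the phagocyte lysosome and cytoplasm, Aif1, which encodes IBA1, was lower in XY gonads (-1.03, FDR = 0.0237) and Coro1a in XX gonads (-0.92, FDR = 0.0131).

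Of 7 general leukocyte genes, Fyb, Ptprc (CD45) and Rac2 were lower in XX KO and Rac2 in XY KO gonads. The summed level of all 7 was 25.9 to 39.7 CPM in XX KO and 36.1 to 37.7 in XY KO against 53.8 to 58.5 in XX and 45.2 to 70.0 in XY controls. No gene of the list was under 1 CPM in every library. Of 10 endothelial and 8 erythroid genes tested, 0 were called in either sex, and their summed levels overlapped between KO and control. Genes of the supporting and steroidogenic cells did differ. All 7 Sertoli genes were lower in XY KO, with a summed level of 38.0 to 48.8 CPM against 96.6 to 241.5 in XY controls, and 0 were called in XX KO, where the sum was 37.3 to 41.9 against 45.7 to 60.5. Cyp11a1 was the 1 of 3 fetal Leydig genes tested that was lower in both sexes, and the Leydig sum was 13.8 to 18.3 CPM in XY KO against 25.7 to 32.3 and 13.9 to 18.7 in XX KO against 23.6 to 31.95. The gonadal somatic genes Gata4 and Nr5a1 were lower in XY KO, and the pre-granulosa genes Fst and Irx3 in XX KO. Cd79b, the 1 lymphoid gene tested, was lower in XY KO (FDR = 0.0286). The part of these cells in the macrophage result was not tested. The summed level of 10 monocyte and granulocyte genes overlapped too, at 49.2 to 84.7 CPM in XX KO against 51.9 to 62.6 in XX controls and 67.9 to 75.3 in XY KO against 62.6 to 77.3 in XY controls. Of 9 genes of the mesonephric tubules and duct, Pax8 was lower in XY KO (log2 fold change -0.67, FDR = 0.0332) and 0 were called in XX KO. The summed mesonephric level was 255 to 267 CPM in XY KO within a control range of 238 to 425, and 306 to 366 in XX KO below a control range of 378 to 413. The part of the mesonephros in the XX result was not tested. The macrophage ligand gene Cx3cl1, which encodes fractalkine, was lower in XY KO (-1.07, FDR = 0.00114), at 9.16 ± 0.39 CPM against 19.2 ± 3.7, and Csf1 was not called.

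Across the 12 libraries of E11.5 the macrophage genes varied together. All 45 pairs had a positive correlation of log2 CPM, with a median r of 0.714 (range 0.304 to 0.970), and after removing the genotype means the median was 0.580. The closest pair was Adgre1 and C1qc, and the loosest was Adgre1 and Cd68. Among 13663 other genes the 5 most like the mean of the macrophage genes included C3ar1 (r = 0.946), Mpeg1 (0.939), Spi1 (0.937) and Tifab (0.931). The libraries share depth and composition, so these values describe the 12 libraries only.

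At E12.5, in isolated gonads, Mrc1 rose in XY KO, and no macrophage gene was called lower in either sex. In XY KO against XY control 1 of 10 genes was called, with 20.6% of 14348 genes called in either direction and 10.3% called higher, 3 passed an unadjusted p of 0.05 (31.8% of all genes), and 6 of 10 had a log2 fold change above 0 (49.1% of all genes). In XX KO against XX control edgeR called 0 of 10 (5.26% of all genes), 1 gene passed an unadjusted p of 0.05 (23.6% of all genes) and DESeq2 called 0, and 6 of 10 were above 0 (49.7% of all genes). Stage, tissue and library kit differ together, so no test was made of the difference between E11.5 and E12.5.

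**Figure D3:**
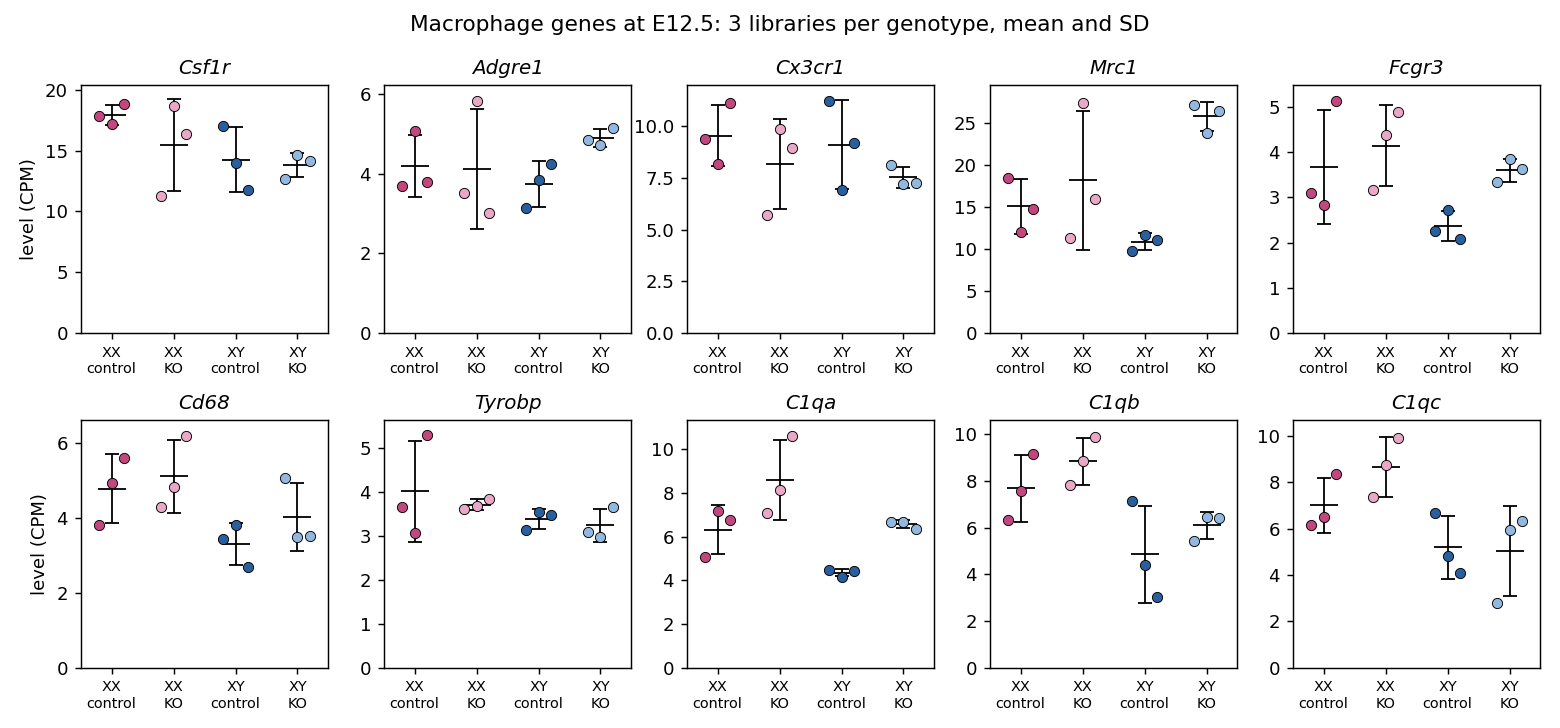
Levels of the 10 macrophage genes at E12.5 in CPM (y axes, linear and starting at 0) by genotype (x axes), with 1 point per library, and a bar and whiskers for the mean and SD of 3 libraries. The XY KO points of Mrc1 lie well above the XY control points, and 1 XX KO library is as high, whereas Csf1r, Cx3cr1 and Tyrobp overlap between KO and control.

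Mrc1 had levels of 9.75, 11.7 and 11.1 CPM in XY controls and of 27.0, 23.8 and 26.4 CPM in XY KO. In XX gonads it had 18.4, 11.95 and 14.8 CPM in controls and 11.3, 27.3 and 15.9 CPM in KO. All XY KO libraries were above all libraries of either control, and XX KO replicate 2 was as high as XY KO while the other two XX KO libraries were in the control range. The log2 fold change in XY gonads was 1.25 ± 0.26 (SE, 2.38-fold, FDR = 0.00304) and that in XX gonads 0.28 with an interval from -0.27 to 0.82. Without XX KO replicate 2 the XX value was -0.15 (FDR = 0.642). The difference between the effects in the sexes was 0.97 ± 0.36 (FDR = 0.0998), against 12.9% of all genes called in that interaction, which edgeR called for 0 of 10 members, with 1, Mrc1, at an unadjusted p under 0.05 (25.7% of all genes) and 0 in DESeq2. Without XX KO replicate 2 the difference was 1.396 (FDR = 0.00320), and the XX KO level was below XY KO by 0.92 on the log2 scale (FDR = 0.0188).

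Csf1r, Tyrobp and C1qc, the genes called at E11.5, were not called at E12.5. Csf1r had 12.7, 14.6 and 14.1 CPM in XY KO against 17.01, 14.0 and 11.7 CPM in XY controls, and 11.3, 18.7 and 16.3 CPM in XX KO against 17.9, 17.1 and 18.8 CPM in XX controls. KO and control libraries overlapped in both sexes, with intervals of the log2 difference from -0.46 to 0.35 in XY and from -0.61 to 0.18 in XX gonads. Tyrobp had 2.97 to 3.66 CPM in XY KO against 3.13 to 3.55 in XY controls and 3.61 to 3.85 CPM in XX KO against 3.08 to 5.31 in XX controls. C1qc had 2.80 to 6.36 CPM in XY KO against 4.08 to 6.70 in XY controls and 7.36 to 9.91 CPM in XX KO against 6.18 to 8.37 in XX controls, overlapping in both sexes.

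C1qa, Adgre1 and Fcgr3 joined Mrc1 in having all XY KO libraries above all XY controls, so that 4 of 10 genes were separated in that direction (19.8% of all genes). C1qa had 4.48, 4.16 and 4.43 CPM in XY controls and 6.66, 6.68 and 6.36 CPM in XY KO. Its log2 fold change of 0.59 missed the threshold (FDR = 0.0560), and it was called with library sizes alone, with DESeq2 and with only the 2 groups in the fit (FDR 0.0410 to 0.0461). Fcgr3 had 2.08 to 2.73 CPM in XY controls and 3.33 to 3.84 CPM in XY KO (FDR = 0.148), and Adgre1 had 3.13 to 4.25 and 4.72 to 5.16 CPM (FDR = 0.330). In XX KO against XX control no member had all KO libraries below all controls (10.5% of all genes), and C1qa, the gene at an unadjusted p under 0.05, had 7.06, 8.12 and 10.6 CPM against 5.05, 7.16 and 6.74 CPM (FDR = 0.196).

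Between the controls of E12.5 no macrophage gene was called, and all 10 had a higher fitted level in XX than in XY gonads. In XX control against XY control edgeR called 0 of 10 genes although 23.8% of all genes were called, 3 passed an unadjusted p of 0.05 (33.6% of all genes) and DESeq2 called 0. These log2 fold changes were above 0 for 10 of 10 members and for 50.9% of all genes, with medians of 0.45 and 0.01. Csf1r, Mrc1, Fcgr3 and C1qa had all XX control libraries above all XY control libraries (18.0% of all genes). The separation was narrow for Csf1r, Mrc1 and Fcgr3. Their lowest XX control libraries had 17.14, 11.95 and 2.82 CPM, against 17.01, 11.70 and 2.73 CPM in their highest XY control libraries. C1qb had 6.34 to 9.18 CPM in XX and 3.04 to 7.13 CPM in XY controls (FDR = 0.0998), C1qa 5.05 to 7.16 and 4.16 to 4.48 CPM (FDR = 0.0761) and Fcgr3 2.82 to 5.12 and 2.08 to 2.73 CPM (FDR = 0.125). Without XY control replicate 1, C1qb was called (log2 fold change 1.01, FDR = 0.0100). This comparison and that of XY KO with XY control share the XY control libraries, whose C1qa and Fcgr3 levels were the lowest of the 4 genotypes. In XX KO against XY KO edgeR called 0 of 10 (0.153% of all genes), 1 passed an unadjusted p of 0.05 (19.2% of all genes, 12.8% being called without XX KO replicate 2) and DESeq2 called 0, and the 3 C1q chains were the members with all XX KO libraries above all XY KO libraries (10.3% of all genes). C1qc, at 7.36, 8.73 and 9.91 CPM against 2.80, 5.94 and 6.36 CPM, differed by 0.77 ± 0.28 on the log2 scale (FDR = 0.235).

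**Figure D4:**
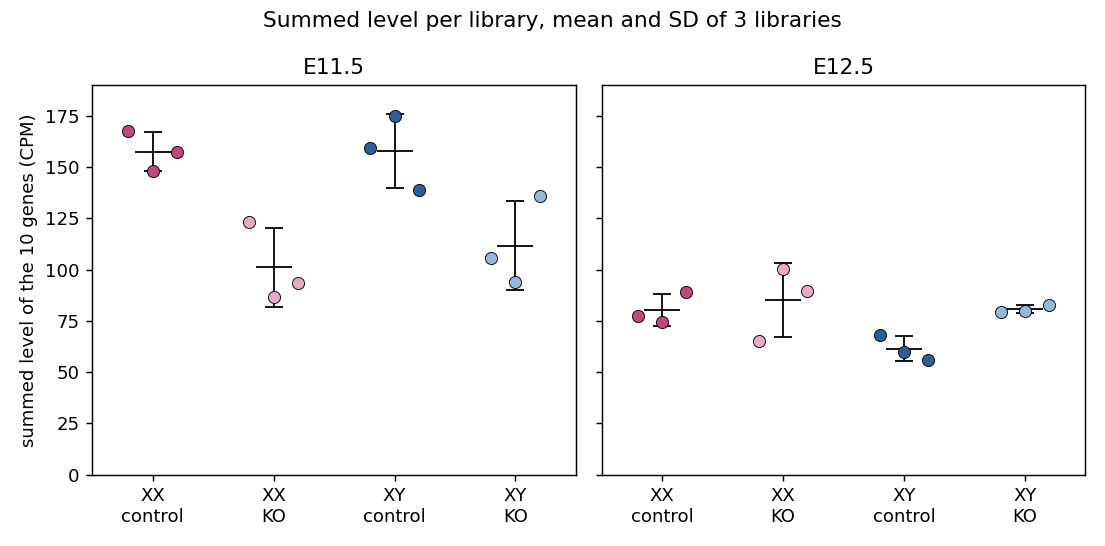
Summed level of the 10 macrophage genes in CPM (y axis, linear and starting at 0) by genotype (x axes) at E11.5 (left) and E12.5 (right), with 1 point per library, and a bar and whiskers for the mean and SD of 3 libraries. At E11.5 all KO libraries (86.8 to 135.6 CPM) lie below all controls (138.8 CPM and above), and at E12.5 the lowest values are in XY controls (56.1 to 68.3 CPM). Without Csf1r, XY KO replicate 3 at E11.5 would be above the lowest control. Most of the gap between XY KO and XY controls at E12.5 is Mrc1.

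The summed level of the 10 genes at E12.5 was 56.1 to 68.3 CPM in XY controls, 79.1 to 82.9 in XY KO, 74.4 to 88.9 in XX controls and 65.2 to 100.3 in XX KO. The XY controls lay below XX controls and XY KO, while XX KO spanned nearly the whole range. Most of the gap between XY KO and XY controls was Mrc1. Its mean was 25.8 CPM in XY KO and 10.9 in XY controls, within mean sums of 80.6 and 61.4 CPM. Without Mrc1 the sums of XY KO and XY controls overlapped. Of the pairs of genes, 36 of 45 were positively correlated, with a median r of 0.341 (range -0.266 to 0.796) over 12 libraries. The genes most like their mean at E12.5 were Dqx1 (r = 0.918), Bcl7a (0.893), Abcg5 (0.892), Rab36 (0.892) and Nlgn2 (0.879), and none of these is on a macrophage or leukocyte list used here.

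Markers of other cell types differed between KO and control gonads at E12.5, where 20.6% of all genes were called in XY KO (10.3% higher) and 5.26% in XX KO. The summed level of 7 Sertoli genes was 50.1 to 73.7 CPM in XY KO and 1525 to 2132 in XY controls, that of 6 fetal Leydig genes was 32.5 to 43.2 and 838 to 1810, and that of 6 pre-granulosa genes was 545 to 586 and 78.2 to 105. XX KO and XX controls overlapped for each of these lists. The summed level of 8 germ cell genes was lower without overlap in both sexes, at 740 to 903 CPM in XY KO against 964 to 1273 and 393 to 841 in XX KO against 953 to 1694. The erythroid sum was 888 to 1621 CPM in XX KO against 1643 to 2740 in XX controls, and the monocyte and granulocyte sum was 30.1 to 39.0 CPM in XY KO against 14.9 to 22.9 in XY controls. Of 9 mesonephric genes 6 were higher and 1 lower in XY KO and 4 were higher in XX KO, with summed levels of 69.0 to 158 CPM in XY KO, 92.3 to 172 in XX KO, 92.9 to 105 in XY controls and 74.7 to 116 in XX controls. The markers Cdh16 and Wnt9b were under 1 CPM in every XY control library. Endothelial Kdr and Pecam1 were higher in XY KO (log2 fold changes 0.55 and 0.50), and the endothelial sum was 794 to 880 CPM against 592 to 775. The part of these cell types in the results of the macrophage genes was not tested.

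The counts of other macrophage genes at E12.5 stand against 20.6% of all genes called (10.3% higher) in XY KO and 5.26% in XX KO. In XY KO, 2 of 7 genes of resident fetal macrophages were higher, Lyve1 (log2 fold change 2.59, FDR = 0.00390) and F13a1 (1.25, FDR = 0.0111). So were 2 of 13 phagocyte receptors and adaptors, Msr1 (1.98, FDR = 0.00198) and Siglec1 (1.15, FDR = 0.0394), with 0 lower in either list. Lyz2, which encodes lysozyme, was higher as well (1.46, FDR = 0.00210). Of the 3 ligand genes tested, Csf1 (0.93, FDR = 0.0341) and Il34 (1.503, FDR = 0.00322), which encode the ligands of the Csf1r product, were higher and Cx3cl1 was lower (-0.66, FDR = 0.00421). The myeloid factor genes Cebpa (-3.27) and Irf8 (-2.07) were lower, as were Olfml3 (-1.49) and Tmem119 (-1.05) from the list of microglial markers. The summed level of that list was 167 to 227 CPM in XY controls, 52.5 to 96.9 in XY KO and 32.3 to 49.1 in XX controls. It did not follow the summed macrophage genes, whose mean was lowest in XY controls, and its cells of origin were not tested. Of 7 general leukocyte genes 0 were called in either sex by edgeR, and their summed level was 28.1 to 34.2 CPM in XY KO against 29.3 to 37.7 in XY controls and 29.8 to 33.4 in XX KO against 35.0 to 46.3 in XX controls. In XX KO, Lyve1 (2.13, FDR = 0.0427), Sirpa (0.52, FDR = 0.0339) and Olfml3 (1.11, FDR = 0.0155) were higher, and 0 ligand or transcription factor genes were called.

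Other complement genes were called at E12.5, where the C1q chains were not. The list used holds complement genes outside the C1q chains and also C1qbp, C1qtnf1 and C1qtnf6, which resemble C1q in name. Of its 15 tested genes, 7 were higher and 3 lower in XY KO (20.6% of all genes called, 10.3% higher). Among them were C1s1, a protease of the C1 complex (2.24, FDR = 0.000122), and, lower, C7, a component of the membrane attack complex (-4.69, FDR = 5.80e-06). C7 had 11.7 to 17.5 CPM in XY controls and 0.409 to 0.675 CPM in XY KO. In XX KO, C1s1 (1.69, FDR = 0.00923) and Cd55, which protects cells from complement (0.89, FDR = 0.0155), were higher and 0 were lower. At E11.5, the genes of this list higher in XY KO included Cd55 (0.64) and Masp1 (1.10), and 0 genes of the list were called in XX KO.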

How the data were processed

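RNA-seq libraries were mapped by the authors to mm10 and counted with the R package Subread (align and featureCounts); the deposited tables hold raw counts per gene, not normalized, and versions, annotation and strand setting are not given in the sources used here. The counts were analysed per stage with edgeR 4.0.16 in R 4.3.3 (TMM, robust dispersions, quasi-likelihood test, ~0 + group over 12 libraries), after keeping genes with 1 CPM in at least 2 libraries, and p-values were adjusted by Benjamini-Hochberg over all genes tested. The filter used CPM of the library totals, printed CPM used TMM library sizes, and correlations used log2 CPM with a prior count of 2. Intervals are 95% intervals of the fit. Nothing in the labels ties replicates to litters or days, so p-values measure the spread between these pools. The members and the 21 lists of other genes were chosen with earlier results of these data known. Named genes were all members, called genes of a list where at most 5 were called (otherwise examples with the lowest FDR) and the 5 genes most correlated with the members' mean. Alternatives were library size alone, relative log expression, no filter, DESeq2 1.42.0, only the 2 groups compared, a replicate block and leaving out each library. Loci and UTRs came from GENCODE annotation of GRCm38 and microRNAs and promoters from RefSeq (GRCm38.p6). Foxl2 mutant tables (12 columns) and single-cell data were not used here. Some genes that the naming rule selects are not reported here.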

Additional observations from a re-analysis of the deposited data

Results flagged for a closer look

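At E12.5 the effect of the deletion in XY minus that in XX gonads was called by edgeR (Benjamini-Hochberg FDR) for 9 of 75 genes tested from 10 lists of macrophage, leukocyte, complement and antigen presentation genes, against 12.9% of all genes, and for none of the 10 macrophage genes. The differences, on the log2 scale, were -3.88 for Cebpa, -1.58 for Irf8, -2.60 for Olfml3, -1.68 for Tmem119, -6.23 for C4b, -4.09 for C7, -2.07 for Masp1, -7.01 for H2-Aa and -2.20 for H2-Ab1, with FDRs from 5.48e-06 (H2-Aa) to 0.0485 (H2-Ab1). For each of them the XY control libraries had the highest mean of the 4 genotypes, for example 10.1 ± 1.2 CPM of H2-Aa (SD, n = 3) against at most 0.495 ± 0.21 in the others. These XY control libraries are also the ones with high Sertoli and fetal Leydig levels, given above, and the part of those cells was not tested.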

How the results depend on the processing

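Csf1r at E11.5 (both sexes) and Mrc1 at E12.5 (XY) were called under every alternative, with log2 fold changes of -1.26 to -0.88 (Csf1r, XY) and -1.27 to -1.06 (Csf1r, XX). The counts of macrophage genes called that moved are given next, without the share of all genes called under each setting. That share moved too when single libraries were left out, so a higher count is not by itself a stronger result. With DESeq2, 5 were called in XY KO and 6 in XX KO at E11.5, all lower, and 2 in XY KO at E12.5. With library sizes alone, 4 were called in XX KO at E11.5, and 2 in XY KO against XY control and 1 in XX against XY control at E12.5, and with only the 2 groups in the fit 2 in XY KO at either stage. Leaving out single libraries gave 2 to 4 (XY KO) and 1 to 4 (XX KO) at E11.5, and at E12.5 1 to 2 in XY KO, 0 to 1 between controls, 0 to 1 between XX KO and XY KO and 0 to 1 in the interaction, the last being Mrc1 without XX KO replicate 2. The drop to 1 in XX KO at E11.5, leaving Csf1r, came without any XX control or XX KO replicate 2 or 3, and the cause was not tested. No value with an unadjusted p under 0.05 reversed its sign, and 73 values of members at higher p did, none of them called. Replicate numbers showed no pairing: residual profiles of same-numbered libraries had a median r of 0.0146 at E11.5 and -0.0448 at E12.5 over 18 pairs each. With the numbers as a replicate block the counts called were 3 (XY KO) and 2 (XX KO, C1qc at FDR 0.0654) at E11.5, and no other call of a member changed. Depth limits the lowest genes most: Fcgr3, Cd68 and C1qb had as few as 24, 31 and 35 counts in a library.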
